A study of Mus musculus with 8 samples.

Results

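The regions described here are stretches of chromatin inside mouse coding genes that carried a called H3K4me peak in both libraries from Prdm16 conditional knockout cortex (cKO) and in neither library from control cortex (WT). They were picked in 4 steps: peaks on chromosomes 1 to 19 were merged within each deposited list, the merged peaks of both cKO lists were intersected, intervals of 200 bp or more with no base under a peak of either WT list were kept, and of these the ones touching the span of a protein-coding gene were retained. This gave 2998 regions, out of 92333 merged peaks over the 4 lists together. The regions were chosen by the presence and absence of called peaks in these same 4 lists, so every contrast of cKO with WT at these regions is a description, with no test. A region counts as absent from WT when no peak was called there, which is a statement about a threshold and not about the absence of the mark.

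The cKO embryos carried Emx1Ires-Cre and Prdm16flox/flox, and the WT embryos were Prdm16 flox/flox without Cre, so both genotypes carried the floxed alleles. Emx1-driven Cre acts in progenitors of the dorsal telencephalon and their descendants, so interneurons, microglia and blood vessel cells that reach the cortex from elsewhere keep Prdm16. All embryos were at E15.5, chromatin came from lysed whole cortex, and 2 ChIP libraries per genotype were used. The labels do not say whether the libraries came from separate embryos or litters, and the spread between them may be technical. The matching inputs were not analysed here. In such a mixed tissue, more cells of a type and more of the mark per cell cannot be told apart.

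PRDM16 is a zinc-finger protein of the PR domain family that is present in cortical radial glia, the neural stem cells lining the ventricle, where it acts in the timing of neurogenesis and in the placement of later-born neurons. Methylation of lysine 4 on histone H3 marks active and poised regulatory DNA: the monomethylated form, for which the antibody is sold, is typical of enhancers and of the flanks of active promoters, and the trimethylated form of the starts of active genes. Long neuronal genes commonly hold many such enhancer-like stretches in their introns.

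Where a region lay on an annotated gene start, the promoter sequence can be shown. The 6 windows printed here span the range of CpG counts, 3 to 67, of the windows wholly inside a region. They were chosen after their values were seen. Each window runs from 250 bases before to 50 bases after the start and lies wholly inside a cKO-only region, and the sequences are taken from RefSeq's GRCm38.p6 tables, which use the coordinates of mm10. The first 3 are rich in CpG dinucleotides. Fam169a (chr13:97071393-97071692, plus strand) has 67 CpG, Hat1 (chr2:71389010-71389309, plus strand), which encodes a histone acetyltransferase, has 32, and Exoc6 (chr19:37550168-37550467, plus strand), which encodes a subunit of the vesicle-tethering exocyst, has 30. The other 3 are poor in CpG. Syt1 (chr10:109009062-109009361, minus strand), which encodes the calcium sensor of synaptic vesicle release, has 6, Lrrtm4 (chr6:80018627-80018926, plus strand), which encodes a postsynaptic adhesion protein, has 4, and Plcb4 (chr2:135764588-135764887, plus strand), which encodes a phospholipase C that acts downstream of G proteins, has 3. All are written 5′ to 3′ along the gene, and capitals mark CpG dinucleotides.
Fam169a: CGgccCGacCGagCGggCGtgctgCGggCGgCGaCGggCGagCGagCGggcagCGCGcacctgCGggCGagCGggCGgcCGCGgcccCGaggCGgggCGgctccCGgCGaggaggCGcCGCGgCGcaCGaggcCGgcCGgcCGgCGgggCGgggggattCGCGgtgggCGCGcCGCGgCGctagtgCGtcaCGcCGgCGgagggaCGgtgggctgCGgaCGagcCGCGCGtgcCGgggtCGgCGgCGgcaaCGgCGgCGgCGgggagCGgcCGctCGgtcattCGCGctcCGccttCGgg
Hat1: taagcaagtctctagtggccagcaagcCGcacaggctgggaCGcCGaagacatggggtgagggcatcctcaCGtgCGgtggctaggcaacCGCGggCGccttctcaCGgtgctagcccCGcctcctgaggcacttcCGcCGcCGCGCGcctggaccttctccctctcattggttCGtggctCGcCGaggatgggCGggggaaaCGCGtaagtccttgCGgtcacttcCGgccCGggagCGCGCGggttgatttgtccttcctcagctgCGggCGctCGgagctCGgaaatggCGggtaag
Exoc6: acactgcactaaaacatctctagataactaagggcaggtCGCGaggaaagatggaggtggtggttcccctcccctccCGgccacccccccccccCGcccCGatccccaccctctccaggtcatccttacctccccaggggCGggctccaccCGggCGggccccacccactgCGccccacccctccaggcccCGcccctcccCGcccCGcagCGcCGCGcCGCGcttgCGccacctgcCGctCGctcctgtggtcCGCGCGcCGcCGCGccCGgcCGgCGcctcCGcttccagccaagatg
Syt1: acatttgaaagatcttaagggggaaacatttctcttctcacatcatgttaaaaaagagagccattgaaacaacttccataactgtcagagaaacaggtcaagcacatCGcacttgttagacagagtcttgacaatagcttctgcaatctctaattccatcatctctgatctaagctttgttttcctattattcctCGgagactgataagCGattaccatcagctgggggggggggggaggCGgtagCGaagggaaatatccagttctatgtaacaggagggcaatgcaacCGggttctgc
Lrrtm4: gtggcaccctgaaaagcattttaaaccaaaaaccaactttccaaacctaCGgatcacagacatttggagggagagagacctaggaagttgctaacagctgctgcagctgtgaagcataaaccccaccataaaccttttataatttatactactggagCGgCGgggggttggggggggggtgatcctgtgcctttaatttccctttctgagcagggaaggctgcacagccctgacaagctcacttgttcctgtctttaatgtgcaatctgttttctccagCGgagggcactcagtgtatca
Plcb4: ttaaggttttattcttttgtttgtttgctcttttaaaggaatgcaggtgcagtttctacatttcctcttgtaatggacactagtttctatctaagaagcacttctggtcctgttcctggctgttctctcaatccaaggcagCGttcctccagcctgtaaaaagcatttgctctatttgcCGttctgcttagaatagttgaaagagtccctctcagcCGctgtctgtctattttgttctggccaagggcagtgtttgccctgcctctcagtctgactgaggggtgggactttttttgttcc

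The regions made up a small share of the peaks that the cKO libraries had in common. Of 44006 intervals of 200 bp or more that both cKO lists shared inside coding genes, 6.81% had no WT peak base, 80.4% touched peaks of both WT lists, 9.48% touched WT replicate 1 alone and 3.36% touched WT replicate 2 alone. The share without a WT peak base was 8.93% of 27398 such intervals outside coding genes and 7.63% of all 71404. The same rule with the genotypes exchanged found 294 WT-only regions, 0.774% of 37997. Both numbers changed with the size of the lists. When each list was cut to the same number of peaks there were 1488 cKO-only and 935 WT-only regions, and when each was cut to the same covered length there were 288 and 3942. The difference, cKO-only minus WT-only, was 2704 with the lists as deposited and -3654 under the last setting. The deposited lists themselves differed in size, with 93.1 and 104 Mb of coding gene span under peaks in the cKO libraries and 82.0 and 72.3 Mb in the WT libraries. Leaving out WT replicate 1 gave 7170 regions, leaving out cKO replicate 1 gave 7522 and leaving out cKO replicate 2 gave 5223. Without WT replicate 2, 4476 regions met the rule. The part of sequencing depth or of precipitation in these differences was not tested, since the lists hold no read counts.

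**Figure D1:**
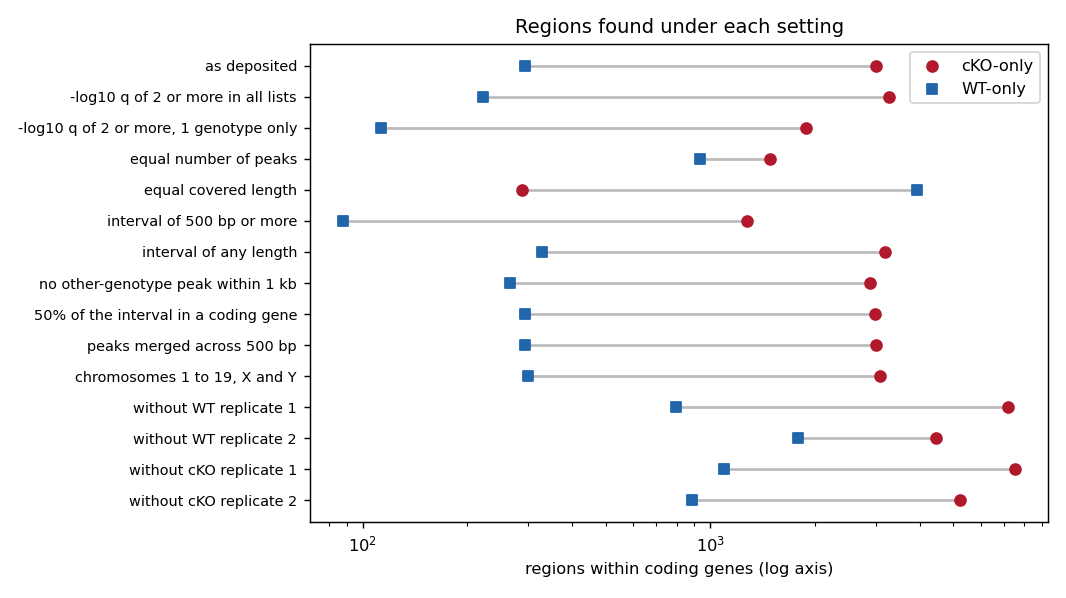
Number of cKO-only (red circles) and WT-only (blue squares) regions within coding genes, on a log axis, under the rule as applied to the deposited lists (top row) and under 14 alternative settings. The cKO-only number is the larger in every row except equal covered length, where 288 cKO-only regions stand against 3942 WT-only regions.

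The peaks over these regions were weak for their library. Fold enrichment is the authors' own value per peak, the signal of the peak over the caller's background. Its median over the 2998 regions was 3.35 in cKO replicate 1 and 3.29 in cKO replicate 2. Over the 35358 intervals that touched both WT lists, the medians were 4.40 and 4.24 in the same 2 libraries. The −log10 q-value, the caller's measure of confidence, had medians of 2.64 and 2.58 at the cKO-only regions and 5.22 and 4.70 at the shared intervals. In all, 485 regions (16.2%) reached a −log10 q of 3 in both cKO lists, against 78.2% of the shared intervals, and 175 regions stayed under 2 in both. The regions thus sat lower in both cKO lists than the peaks that all libraries had in common. The regions outside coding genes were alike in strength, with median fold enrichments of 3.35 and 3.30. Low strength was not particular to cKO-only regions. In WT replicates 1 and 2 the WT-only regions had median fold enrichments of 3.56 and 3.23, against 4.46 and 3.84 at the shared intervals. Their median −log10 q-values were 2.53 and 1.93, against 4.48 and 3.23.

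**Figure D2:**
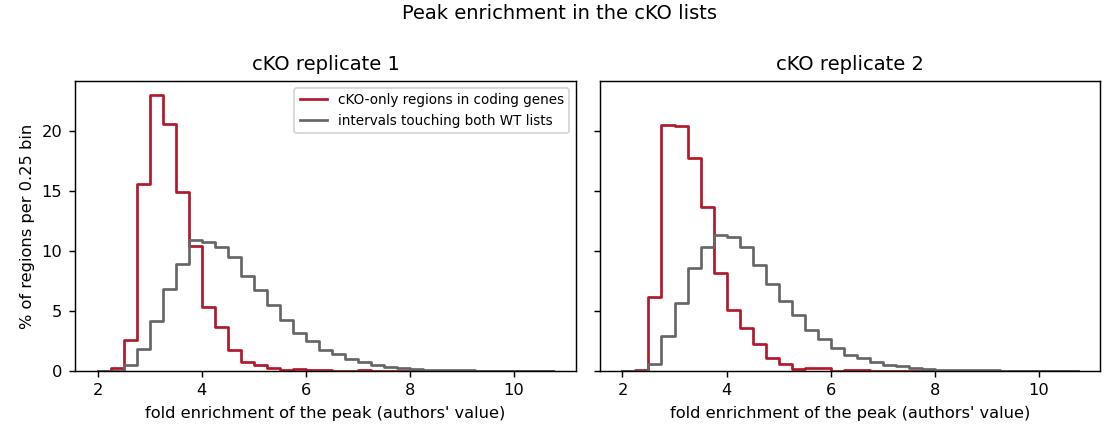
Distribution of the authors' fold enrichment of the peak over each interval in cKO replicate 1 (left) and cKO replicate 2 (right), as percent of intervals per bin of 0.25. The cKO-only regions (red) have medians of 3.35 and 3.29, and the intervals that touch both WT lists (grey) have medians of 4.40 and 4.24.

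The values of the 2 cKO libraries were only loosely related from region to region. Over the 2998 regions the fold enrichments of the 2 cKO libraries had a Pearson r of 0.137 and a Spearman rho of 0.133, and over the 35358 shared intervals they had 0.679 and 0.634. These correlations are across regions, which share libraries and are not independent replicates, and the range of values is narrower at the cKO-only regions. Replicate 1 had the higher value at 1619 regions (54.0%).

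The regions were short. Their median length was 452 bp, the quartiles were 346 and 658 bp, and together they covered 1708 kb. The shared intervals had a median of 1599 bp, and 72.3% of them reached 1 kb, against 308 (10.3%) of the cKO-only regions. WT-only regions had a median of 395 bp. Each region was the overlap of 1 peak from each cKO list, and for 1364 of them (45.5%) it equalled a whole peak of 1 list. The peaks behind the regions had median widths of 608 and 748 bp. In 2670 regions (89.1%) neither of those peaks reached a WT peak anywhere along its length. In the other regions a wider cKO peak ran on until it met a WT peak, in 124 through cKO replicate 1 and in 213 through cKO replicate 2, with 9 in both. Just inside the length limit, the 125 regions less than 50 bp above the minimum had median fold enrichments of 3.34 and 3.19. Just outside it, 82 intervals up to 50 bp too short had 3.22 and 3.12. A further 22 intervals long enough but with no more than 50 WT peak bases had 3.06 and 3.36.

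Few regions were long, and 26 reached 2 kb. The longest was a 5152 bp stretch of Exoc6b (chr6:84742602-84747753), which encodes an exocyst subunit. Its peaks had fold enrichments of 3.85 and 3.37 in the cKO libraries, and the nearest WT peaks lay 48564 bp away in WT replicate 1 and 48262 bp away in WT replicate 2. Over the whole gene, peaks covered 25.7 and 19.8 kb in the cKO libraries, against 6.86 and 8.37 kb in the WT libraries, so both cKO values were above both WT values. The cKO values include the bases of the cKO-only regions themselves. Gnao1, which encodes the alpha subunit of the G protein Go, held 3569 bp (chr8:93851058-93854626) with fold enrichments of 2.91 and 3.02 and −log10 q-values of 1.93 and 2.02, near the calling threshold. Sergef, a guanine nucleotide exchange factor of the secretory pathway, held 3395 bp (chr7:46472965-46476359) with fold enrichments of 3.76 and 3.57. Pitpnc1, a phosphatidylinositol transfer protein, held 3238 bp (chr11:107457242-107460479) with 3.11 and 3.54. In Gnao1, Sergef and Pitpnc1 the nearest peak of each WT list lay between 3191 and 5628 bp from the region.

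The other hosts of the 10 longest regions were Trpm3 (a cation channel, 3235 bp), Npas3 (a transcription factor of the bHLH-PAS family, 2951 bp), A930007A09Rik (2705 bp), Msra (methionine sulfoxide reductase A, 2551 bp), Prkg1 (cGMP-dependent protein kinase, 2499 bp) and Ranbp17 (a relative of nuclear import receptors, 2444 bp). The Trpm3 region had its nearest WT peak 54487 bp away. A930007A09Rik was the one host among these with no peak in either WT list, and its peaks covered 2.71 and 2.99 kb in the cKO libraries against 0 in both WT libraries. The Msra region was cut from a 7436 bp peak of cKO replicate 2 that reached a WT peak.

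The 10 regions with the highest fold enrichment measured 349 to 896 bp, around the median of 452 bp over all regions. Ranked by the lower of the 2 cKO values, the first was a 388 bp region of Nlrc5 (chr8:94492195-94492582), an activator of MHC class I genes, with fold enrichments of 5.06 and 5.19. An 896 bp region of Csmd1 (chr8:15941885-15942780), a large transmembrane protein with complement control domains, had 4.77 and 4.83. A 526 bp region of Uqcrc1 (chr9:108937262-108937787), a core subunit of respiratory complex III, had 5.95 and 4.53. Its peaks of 598 and 558 bp were the only ones over the gene in the cKO lists, and the WT lists had none. The remaining hosts in this rank were Pigm, Adam7, Car10, Ankrd44, Htr1f, Rab3b and a position where Cenpp and Aspn overlap, with lower cKO values of 4.50 to 4.71. Their regions measured 349 to 590 bp, and the one in Pigm was part of a 4709 bp peak of cKO replicate 1 that reached a WT peak.

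By the rule all regions lay outside WT peaks, so their distances to WT peaks are a description alone. Distances for other stretches without a WT peak were not computed. Neighbouring peaks had median gaps of 10881 bp in WT replicate 1 and 12392 bp in WT replicate 2. The median distance to the nearest peak of either WT list was 5618 bp, and 115 regions (3.84%) had one within 1 kb. The nearest interval covered in all 4 libraries was a median of 8526 bp away. Neighbouring peaks of one list were never closer than 1269 to 1357 bp, so short distances between separate peaks of one list do not occur in these files. At the far end, 28 regions had no WT peak within 100 kb. The regions were also scattered: 209 (6.97%) had another such region within 10 kb, and the median distance to the nearest other one was 127 kb. Per chromosome, the number per Mb of coding span ran between 2.66 on chromosome 16 and 3.66 on chromosome 17.

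A smaller share of the regions than of the shared intervals lay at gene starts. How much of the coding span lies near starts was not computed, so density near starts is not known. Distances were measured to the nearest listed start, for the 2902 regions on chromosomes with listed starts. Some genes have no listed start, so a distance can be an overestimate. Of these regions, 70 (2.41%) lay on a start, against 15.4% of the shared intervals. Another 133 (4.58%) lay off a start but 1 to 1000 bp from one, against 7.99%. A further 38.7% lay over 20 to 100 kb away and 31.1% over 100 kb away. Length goes with this: among regions of 200 to 500 bp, 1.25% lay on a start, against 2.83% of shared intervals of that length, and above 2000 bp it was 19.2% of 26 regions against 25.7%. When host genes were cut into 5 equal parts from 5′ to 3′, part 1 held 24.3% of 2383 region and gene pairs, and the parts after it held 19.7%, 19.2%, 19.2% and 17.6%. Whether a region lies in an exon, an intron or a UTR was not analysed here.

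The regions touched 2122 of 20661 coding genes (10.3%), against 274 genes (1.33%) for the WT-only regions, and 128 genes held both kinds. Of the hosts, 1592 held 1 region, 322 held 2, 121 held 3, 37 held 4 and 50 held 5 or more. Hosts were mostly genes that carried the mark in WT cortex too: 1850 of them (87.2%) also held an interval shared with both WT lists. That share was not counted over all coding genes, and hosts are longer (median 101 kb against 17.5 kb), which leaves more room for such an interval. A further comparison is with genes that had no WT peak base at all, which were 182 of the 2122 hosts and 6206 of all 20661 coding genes. Of the cKO-only regions of the whole genome, 55.1% of 5445 touched a coding gene, against 51.4% of 572 WT-only regions and 63.3% of 55870 shared intervals.

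Hosts were mostly long genes. The median length was 101 kb for hosts and 17.5 kb for all coding genes. Among genes under 20 kb, 2.01% were hosts, and the share was 7.77%, 18.8%, 34.9%, 59.3% and 74.0% in the successive classes up to genes over 500 kb. Per Mb of gene span the number was flatter, between 2.54 and 3.50 in all 6 classes. Set against the shared intervals of the same genes, there were 3.44 cKO-only regions per 100 shared intervals in genes under 20 kb and 11.3 in genes over 500 kb.

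**Figure D3:**
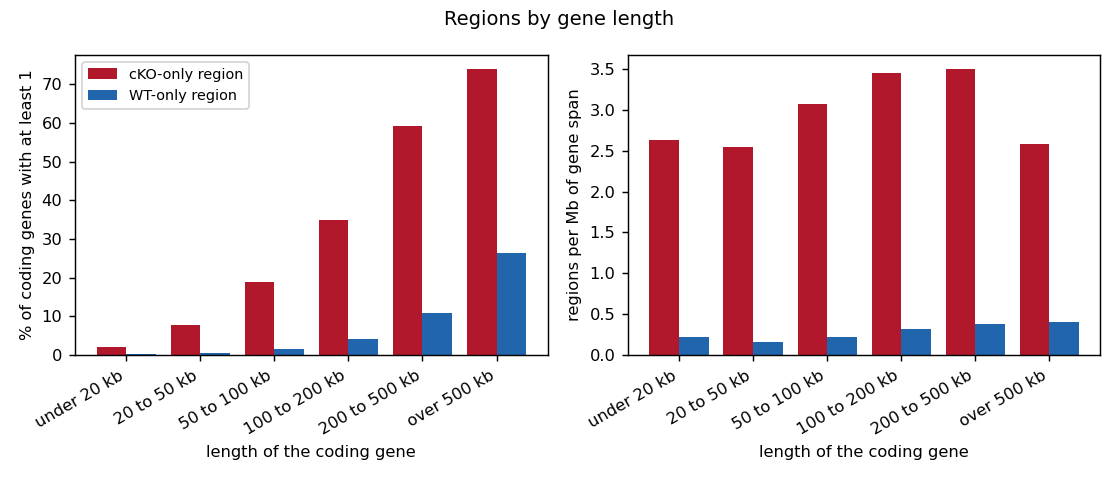
Left, percent of coding genes of each length class that hold at least 1 cKO-only (red) or WT-only (blue) region. Right, the same regions per Mb of gene span. The share of hosts among genes is 2.01% under 20 kb and 74.0% over 500 kb, while the number per Mb stays between 2.54 and 3.50 for cKO-only regions.

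Of all coding genes, 24 held 6 or more regions, and 14 of these held exactly 6. Rbfox1 (a neuronal splicing factor, 1528 kb), Csmd1 (1643 kb) and Nckap5 (917 kb) held 8 each. Cdh13 (a GPI-anchored cadherin), Nrxn3 (a presynaptic adhesion receptor), Pard3 (a cell polarity scaffold), Wwox (an oxidoreductase with WW domains), Sorcs3 (a receptor of the sortilin family) and Pde4d (a cAMP phosphodiesterase) held 7 each. Tenm3 (a teneurin adhesion protein), Sox5 (a transcription factor of deep-layer neurons), Asic2 (an acid-sensing ion channel), Camta1 (a calmodulin-binding transcription activator) and Ctnnd2 (delta-catenin of dendrites) held 6 each, and so did the shorter genes Tshz2 (440 kb) and Tafa5 (215 kb). The rule for naming took 15 genes by number of regions and broke ties by region bases, so it stopped inside the group with 6, and the values that follow are for those 15. In all 15, both cKO libraries had more kb under peaks than either WT library, as had 49.9% of the 15052 coding genes with a peak base in any list. The 15 were picked for their number of cKO-only regions, whose bases count in these kb, so the choice of genes favours this outcome. In Csmd1, for example, peaks covered 52.0 and 52.5 kb in the cKO libraries and 32.1 and 31.8 kb in the WT libraries. In Sox5 they covered 243 and 253 kb in the cKO libraries and 194 and 176 kb in the WT libraries. These genes also held between 19 and 72 shared intervals each, so shared intervals outnumbered the cKO-only regions in every one of them. They held 0.434 to 1.28 cKO-only regions per 100 kb, while Tshz2 held 1.36 and Tafa5 2.79. Some Sox5 regions were parts of wider cKO peaks that reached a WT peak, among them a peak of 14409 bp in cKO replicate 1.

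Shorter genes, Tafa5 among them, led when regions were counted per length among genes holding 3 or more. Sesn3, a stress-induced sestrin, had 3 regions in 49.8 kb, or 6.02 per 100 kb. Dgkd, a diacylglycerol kinase, had 4 regions at 4.35 per 100 kb, and Kremen1, a receptor for Dickkopf inhibitors of Wnt signalling, had 3 at 4.28. The other members of this rank were Neurl1a, Mbp, Flrt2, Epsti1, Cables1, Slc41a2 and Tafa5, at 2.79 to 3.72 per 100 kb. In Sesn3 peaks covered 3.96 and 3.53 kb in the cKO libraries and 1.48 and 1.89 kb in the WT libraries. In Kremen1 they covered 16.4 and 17.9 kb in the cKO libraries and 8.19 and 7.15 kb in the WT libraries. Both cKO values were above both WT values in each of these 2 genes, which the choice by cKO-only regions favours.

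Among 25 lists of genes by role, those of neuronal wiring and transmission had the largest shares of hosts, and they are lists of long genes. In the list of glutamate and GABA receptors, 19 of 32 genes (59.4%) were hosts. The shares were 23 of 42 (54.8%) for synaptic adhesion and scaffold genes, 21 of 39 (53.8%) for axon guidance receptors and ligands, and 18 of 34 (52.9%) for voltage-gated ion channels. These stand against 10.3% of all coding genes, but the median gene of the 4 lists measured 279, 663, 197 and 235 kb, and 34.9%, 59.3% and 74.0% of all genes of 100 to 200, 200 to 500 and over 500 kb were hosts. Per Mb of span the 4 lists had 2.51, 2.32, 3.50 and 2.82 regions, against 3.03 over all coding genes, so their rate per length was near that of other genes. G protein and second messenger genes had 18 hosts of 42 and 4.20 regions per Mb, and genes of the exocyst, SNARE proteins and vesicle release had 13 of 37 and 3.37 per Mb.

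Within the receptors, Gria1, which encodes an AMPA receptor subunit, held 5 regions with 4340 bp. Its peaks covered 12.9 and 18.0 kb in the cKO libraries and 10.9 and 7.07 kb in the WT libraries. The longest of the 5 (chr11:57174087-57175641) had fold enrichments of 3.83 and 3.31, with WT peaks 18383 and 18673 bp away. Grik4, a kainate receptor subunit, and Grid1, a delta-type glutamate receptor, held 4 each. Among adhesion genes the most region bases were in Magi1, a scaffold protein (5 regions, 5158 bp), followed by Csmd1 (5011 bp) and Tenm3 (4808 bp). Among guidance genes they were in Plxna2, a semaphorin receptor (3 regions, 3386 bp), Ephb1, an ephrin receptor (5 regions, 2965 bp), and Robo1, a slit receptor (5 regions, 2492 bp). Among channels, Cacna2d1, Cacna1d (calcium channel subunits) and Kcnma1 (a calcium-activated potassium channel) held 2, 4 and 4 regions.

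Among the genes of vesicle release, synaptotagmin 1 came after Exoc6b by region bases and just before Sergef, with 4 regions and 3397 bp in a gene of 513 kb. Peaks over Syt1 covered 29.3 and 29.3 kb in the cKO libraries and 15.03 and 12.64 kb in the WT libraries. The region at one of its starts (chr10:109008508-109010128), which holds the CpG-poor window printed above, was 1621 bp long with fold enrichments of 3.73 and 3.12. The peak of cKO replicate 2 that contains it was 3675 bp wide and reached a WT peak. The other Syt1 regions measured 444 to 774 bp, and none of their peaks reached a WT peak.

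**Figure D4:**
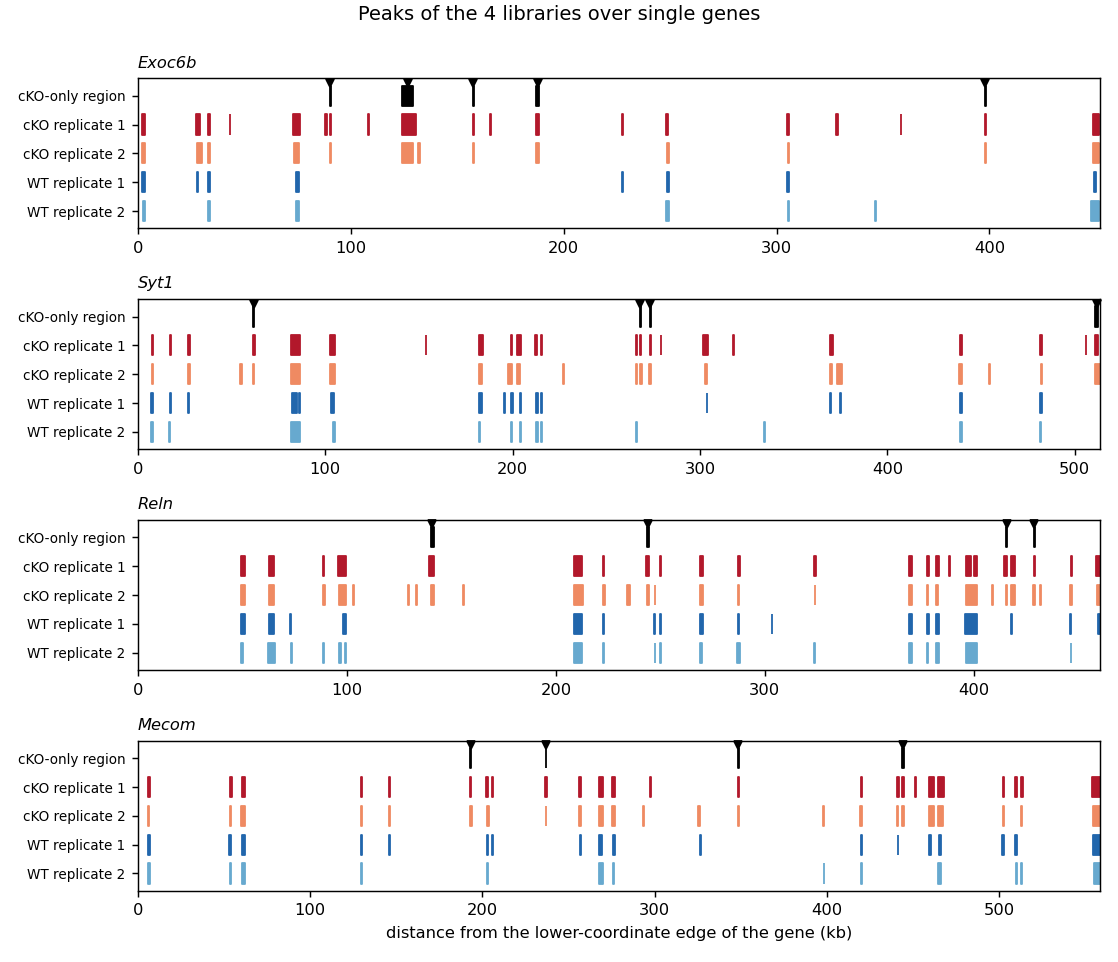
Called peaks of the 4 libraries along Exoc6b, Syt1, Reln and Mecom, as distance in kb from the lower-coordinate edge of each gene, with the cKO-only regions in black under arrowheads. Exoc6b has 5 such regions and the other 3 genes have 4 each, placed among peaks that the libraries share.

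The lists of cell type genes ranged widely in their share of hosts, and several had none. Of the deep-layer neuron genes 9 of 18 were hosts, with a median gene length of 183 kb, and Tshz2, a zinc-finger factor, held 6 regions. Of the upper-layer genes 5 of 17 were hosts, and Epha3, an ephrin receptor, held 3 regions. Peaks over Epha3 covered 43.1 and 27.1 kb in the cKO libraries and 27.1 and 27.3 kb in the WT libraries, so the genotypes overlapped there. They did so in 7 of the 95 genes that the naming rule picked. In the other 88 both cKO values were above both WT values, as in 49.9% of the 15052 coding genes with a peak base in any list. Apart from the fixed set, the named genes were picked by their cKO-only regions. The bases of those regions count in these kb, so the rule favours higher cKO values. Of the newborn projection neuron genes 4 of 18 were hosts, of the radial glia genes 3 of 25 (Nfia, Veph1 and Ednrb) and of the intermediate progenitor genes 2 of 17 (Elavl2 and Chd7). Reln, Ebf2 and Ebf3 were among 4 hosts of 11 Cajal-Retzius genes, and in Reln, which encodes the secreted protein reelin, peaks covered 34.7 and 36.8 kb in the cKO libraries and 25.5 and 22.8 kb in the WT libraries. The genotypes overlapped in the other 2: peaks over Ebf2 covered 22.8 and 34.0 kb in the cKO libraries and 27.2 and 21.0 kb in the WT libraries, and those over Ebf3 covered 34.9 and 42.2 kb in the cKO libraries and 38.9 and 37.3 kb in the WT libraries. The single regions of Chd7 and Ebf3 were parts of wider peaks of cKO replicate 2 that reached a WT peak. An Nfia region was part of a 25092 bp peak of cKO replicate 1 that reached one too. The list of interneuron and ventral genes had 3 hosts of 19. The radial glia (12%) and intermediate progenitor (11.8%) lists were near the 10.3% of all coding genes, from 3 and 2 hosts. Their median gene lengths were 29.9 and 6.70 kb. Of all coding genes, 7.77% of those of 20 to 50 kb and 2.01% of those under 20 kb were hosts. Per Mb of span, the deep-layer, upper-layer, newborn neuron, radial glia and interneuron lists had 4.95, 3.74, 3.92, 2.77 and 2.21 regions, against 3.03 over all coding genes. The intermediate progenitor and Cajal-Retzius lists had 6.67 and 7.47 per Mb, from 3 and 8 regions.

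Lists for other cell types of the cortex were small, and their counts are read beside the 10.3% of all coding genes. Endothelial and pericyte genes, with a median length of 41.6 kb, had 5 hosts of 16: Rgs5, Eng and Flt1 led by region bases, and Eng, a co-receptor of endothelial cells, had 0.594 and 0.813 kb under peaks in the cKO libraries and 0 in both WT libraries. Oligodendrocyte precursor and astrocyte genes, with a median length of 17.4 kb, had 5 hosts of 14, with Mbp (myelin basic protein, 4 regions), Lhfpl3 (3 regions) and Bcas1 (1 region) in the lead. Per Mb these 2 lists had 4.82 and 10.8 regions, from 5 and 10 regions. There were no hosts among 14 microglia, 12 meninges, 8 erythroid, 15 muscle and liver and 16 housekeeping genes. Those 5 lists hold short genes, with medians of 5.13 to 22.6 kb, and in the 2 shortest length classes of all coding genes 2.01% and 7.77% were hosts, so 0 hosts in lists of this size is near the background. Peak lists give no cell numbers, and the part of a changed cell mix in these counts was not tested.

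Genes of chromatin, signalling and basic machinery had shares of hosts between 10.7% and 18.5% in 4 lists, against 10.3% of all coding genes. Median gene lengths were 71.95 kb (histone methylation and PRDM), 65.1 kb (TGF-beta and BMP), 43.85 kb (Wnt) and 24.8 kb (RNA polymerase II, splicing and translation). Of all genes of 20 to 50 and 50 to 100 kb, 7.77% and 18.8% were hosts. In the same order, the 4 lists had 2.41, 2.07, 3.61 and 5.90 regions per Mb, against 3.03 over all coding genes. The list of endosome, Golgi and trafficking machinery had 8 hosts of 32 at a median gene length of 75.7 kb, where 18.8% of all genes of 50 to 100 kb were hosts, and 2.70 regions per Mb against 3.03 over all coding genes. Of 42 histone methylation enzymes and PRDM family genes 6 were hosts (14.3%). Mecom, the closest relative of Prdm16, held 4 regions of 467 to 1181 bp, and its peaks covered 31.5 and 30.6 kb in the cKO libraries and 20.9 and 14.0 kb in the WT libraries. Kdm6b, a histone H3 lysine 27 demethylase, and Kdm4b, a lysine 9 demethylase, held 1 region each, of 1951 and 1354 bp. The Kdm6b region was part of a 5576 bp peak of cKO replicate 2 that reached a WT peak. Wnt signalling genes had 5 hosts of 27, among them Wnt8b, a ligand of the medial pallium, with a 1493 bp region, Tcf7l1 and Lef1. Both Tcf7l1 regions were parts of peaks of cKO replicate 2, 11798 and 4453 bp wide, that reached a WT peak. TGF-beta and BMP genes had 3 hosts of 28 (Tgfbr3, Smad4 and Bmpr2). The list of RNA polymerase II, splicing and translation genes had 5 of 30, led by Med13l, and Cog5 led the endosome and Golgi list.

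Prdm16 itself held 1 region, 282 bp long (chr4:154413725-154414006), with fold enrichments of 5.91 and 3.54. The first value belongs to a peak 5496 bp wide that reached a WT peak. Peaks covered 165 and 175 kb of the Prdm16 span in the cKO libraries and 148 and 139 kb in the WT libraries. Peak lists do not show whether the floxed part was deleted, so they give no check of the labels. Pdzrn3, a ubiquitin ligase with PDZ domains, held 4 regions of 361 to 905 bp, and its peaks covered 77.2 and 85.1 kb in the cKO libraries and 52.9 and 44.0 kb in the WT libraries. Its 905 bp region was part of an 8394 bp peak of cKO replicate 2 that reached a WT peak 700 bp away.

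A small set of 76 regions touched promoter windows, which is a wider criterion than lying on the start itself, as 70 regions did. They touched 87 of 20062 windows (0.434%), of 78 genes, some of them by the upstream end alone, and 56 windows of 50 genes lay wholly inside a region. These regions were longer than the rest, with a median of 834 bp, and 31 of them (40.8%) reached 1 kb. The hosts have varied roles and include, beyond the 6 genes whose windows are printed above, Plk2 (a Polo-like kinase), Irf1 (an interferon response factor), Vegfc (a lymphatic growth factor), P2ry1 (an ATP and ADP receptor) and Prmt9 (an arginine methyltransferase), all chosen after their values were seen. The Vegfc region was 2267 bp long with fold enrichments of 3.27 and 3.17, and the nearest peaks lay 84435 bp away in WT replicate 1 and 78898 bp away in WT replicate 2. The Plk2 region was 1634 bp long with 2.86 and 3.17, and the nearest peaks lay 140 bp away in WT replicate 1 and 1848 bp away in WT replicate 2. In a further 775 windows both cKO lists had a peak and no WT list did, but the cKO interval reached a WT peak elsewhere or was too short to count. Over all windows, 41.4% and 45.9% were touched in the cKO libraries and 35.8% and 30.3% in the WT libraries.

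**Figure D5:**
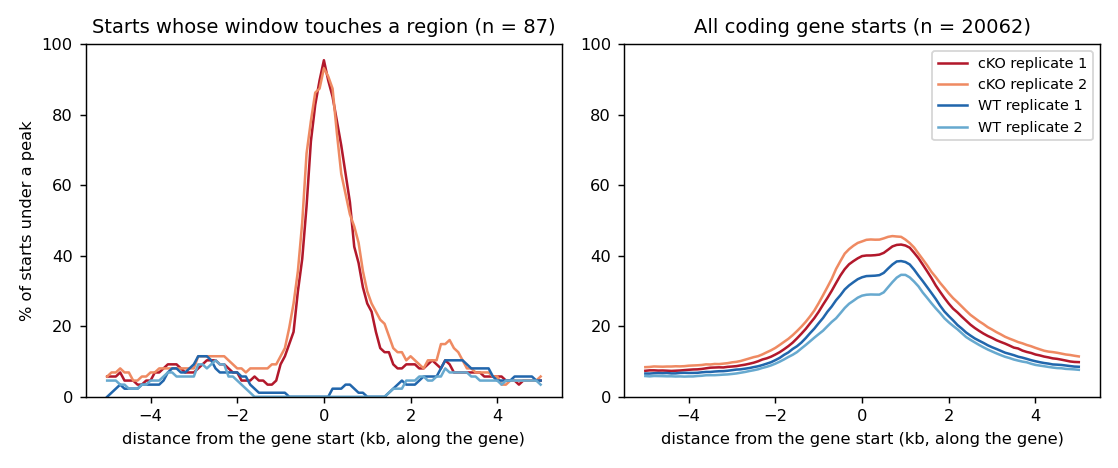
Percent of gene starts under a peak in each library, by distance from the start along the gene in kb, for the 87 starts whose promoter window a cKO-only region touches (left) and all 20062 starts (right). On the left the WT lines lie at or near 0 at the start, which the rule for choosing the regions imposes, and on the right the cKO lines run above the WT lines.

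The windows touched by cKO-only regions were intermediate in base composition. They held a median of 14 CpG, the same as all windows, against 18 for windows touched by a peak in all 4 lists and 4 for windows touched in none. The 775 windows with a peak in both cKO lists and no WT list whose interval reached a WT peak or was too short held a median of 24. The composition of the 87 windows therefore does not stand for all starts with peaks in the cKO lists alone. Of the 56 windows wholly inside a region, 25 held 20 or more CpG and 15 held fewer than 10, so CpG-rich and CpG-poor starts were both present. Motifs were searched on both strands of each window. The sequence GGGCGG, the core of an SP-type GC box, holds a CpG itself and was in 47.1% of the 87 windows, 61.3% of those in all 4 lists and 47.0% of all windows. TATAAA, the TATA box, was in 9.20%, 7.24% and 12.7% of the same sets, and CCAAT, bound by nuclear factor Y, in 39.1%, 36.1% and 38.1%. No motif here is part of another. The Lrrtm4 window holds TATAAA and the Fam169a window does not. None of 1003 miRNA hairpins in the reference table was touched by a region. The regions cover 1708 kb in all, and hairpins under other peaks were not counted, so this count has no background beside it.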

How the data were processed

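Per-library broad peak lists of H3K4me ChIP-seq from E15.5 mouse cortex, 2 cKO and 2 WT, were the data. The submitters' processing notes name cutadapt, FastQC, MACS2 2.1.1 and Bowtie2 2.2.8, and the build mm10. For calling options, and for how inputs entered, the sources used here give nothing. Each deposited line gives a score, a fold enrichment (a ratio over the caller's background) and the −log10 p and −log10 q that the authors' caller wrote. The depth is unknown, so no counting interval was computed, and a deeper library can give more and wider peaks.

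Merging and intersecting used pandas 2.3.3 and numpy 2.4.6 under Python 3.11.15. On simulated data the code was tested against counting each base singly, with 180 checks and 0 mismatches. Coding gene spans (20661 genes), 20062 promoter windows (for 16456 of those genes) and miRNA hairpins came from RefSeq tables on GRCm38.p6. They give no exons, and no promoter windows on chromosome 18. A region takes the fold and −log10 q of the peak over it in each cKO list.

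No test was made, because the same peak lists chose the regions. Lists were cut by −log10 q, by number and by covered length as alternatives. The members, the 25 gene lists (593 distinct genes) and the tests were chosen with earlier results of these data known. Genes named are a fixed set of 6, the 15 with most regions, hosts of the 10 longest and of the 10 highest in fold, the 10 densest among genes with 3 or more, and the 3 with most region bases in each list; others are said to be chosen after their values were seen. Some genes that this rule picks are not reported here.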

Additional observations from a re-analysis of the deposited data

How the results depend on the processing

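No paired analysis was possible because no result comes from a test. The number of cKO-only regions, of WT-only regions and their difference were 2998, 294 and 2704 with the lists as deposited. They were 1892, 113 and 1779 when −log10 q of 2 or more was asked of the named genotype alone, 1488, 935 and 553 with equal numbers of peaks, 288, 3942 and -3654 with equal covered length, and 1276, 88 and 1188 for intervals of 500 bp or more. Leaving out each library in turn gave 4476 to 7522, 795 to 1793 and 2683 to 6430. The difference reversed with equal covered length alone. Equal covered length kept the peaks of highest −log10 q in each list, up to the 112.94 Mb that WT replicate 2 covers. That list stayed whole, while the other lists lost their peaks of lowest −log10 q. The lists were thus held to unlike −log10 q limits. Whether the deposited difference reflects depth or precipitation was not tested.

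The mean over both cKO libraries of the median fold enrichment was 3.32 as deposited. It was 3.4883 with −log10 q of 2 or more in all lists, 3.482 with that limit in 1 genotype, 3.6411 with equal numbers, 4.2097 with equal length and 3.1042 to 3.4012 without single libraries. Host genes numbered 2122 as deposited, 1228 with equal numbers, 280 with equal length, 1042 at 500 bp or more and 2876 to 4153 without single libraries. The share of cKO-only regions touching coding genes was 55.06% as deposited, 53.631% with equal length and 52.923% to 55.733% without single libraries. The median distance to a WT peak was 5618 bp as deposited, 6580 bp with −log10 q of 2 or more in all lists, 6645 bp with equal numbers, 7393 bp with equal length and 5591.5 to 7108 bp without single libraries. The cause was not tested for these values. Merging peaks across 500 bp could join none, since no gap within a list was that small, and says nothing about stability.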

Other observations

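Of the 2998 regions, 159 (5.3%) were also found with stricter peaks, with equal numbers of peaks and with equal covered length. Equal covered length alone kept the same 159, so the other settings removed none of them. All 3 settings cut the lists by −log10 q, so they are not separate checks, and higher values in the kept set follow from the cut. This combination was chosen after seeing the data. These 159 regions lay in 157 genes, with a median length of 498 bp and median fold enrichments of 4.14 and 4.29 in cKO replicates 1 and 2. Only 16 of them reached 1 kb. The longest was 2373 bp in Fosl2 (chr5:32151975-32154347), an AP-1 transcription factor, with fold enrichments of 4.26 and 4.16 and WT peaks 7909 and 7893 bp away. Eef1akmt2, a lysine methyltransferase of a translation elongation factor, followed with 2088 bp on its start (chr7:132851067-132853154) and fold enrichments of 4.08 and 3.91. Tnr, which encodes the extracellular matrix protein tenascin-R, had 1654 bp (chr1:159913796-159915449) with 4.71 and 3.72. Asic2, Cdh13, Csmd1 and Nkain2 held 2 of these regions each. Fosl2, Eef1akmt2, Tnr and Nkain2 were named after their values were seen.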
